A study of Mus musculus with 16 samples.

Results

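The actin and alpha-actinin isoforms of the mouse left ventricle were followed here as 8 genes of the 56953 in the deposited count table. They were chosen by name: the striated muscle actins Acta1 (skeletal alpha-actin) and Actc1 (cardiac alpha-actin), the smooth muscle actin Acta2, the cytoplasmic actins Actb and Actg1, the sarcomeric alpha-actinin Actn2, and the nonmuscle alpha-actinins Actn1 and Actn4. Their splicing events were taken by gene symbol from the 3 deposited rMATS tables, which gave 35 of 44612 events for P635L Ctr and WT Ctr, 45 of 44418 for P635L Tnpo3 and WT Ctr, and 32 of 41025 for WT Tnpo3 and WT Ctr.

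Actin polymerises into the thin filament of the sarcomere and into the cytoplasmic filaments of every cell, and the isoforms differ in few residues. In the adult mouse heart Actc1 is the main sarcomeric actin and Acta1, the isoform of skeletal muscle, is also made and is known to rise with pressure load. Alpha-actinin is an antiparallel dimer that cross-links actin filaments, in the Z-disc in the case of Actn2 and at adhesions and stress fibres in the case of Actn1 and Actn4.

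Left ventricles of 16 Bl6J mice gave 1 RNA library each, with 4 animals per group. WT animals had normal alleles, and P635L animals carried that RBM20 missense mutation on both alleles. RBM20 is a splicing factor of striated muscle whose targets include titin. At 4 weeks of age AAV9 (1e12 v.g.) was given by tail vein, and hearts were taken at 16 weeks. One virus carried a cDNA for Tnpo3, a receptor for import into the nucleus. The other, Ctr, expressed iCre and eGFP from a CAG promoter, so both Ctr groups carried Cre. Genotype and virus name each group, as in P635L Tnpo3. Males and females were used, and the sex of single mice is not in the labels. The promoter of the Tnpo3 construct is not given in the sources used here.

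The libraries held 28493249 to 85922669 counts. Tnpo3 stood at 41.6 to 49.4 CPM (counts scaled to each library's normalised total) in WT Ctr, 41.9 to 47.8 in P635L Ctr, 231 to 507 in WT Tnpo3 and 234 to 723 in P635L Tnpo3, as the labels imply. Rbm20 averaged 224 to 245 CPM in the 4 groups. In 3 libraries (WT Ctr replicates 2 and 4 and WT Tnpo3 replicate 4) the single gene ENSMUSG00000119584 took 19.96% to 22.65% of counts, against 0.7% to 5.3% in the others. More Xist than Y-linked counts were found in 3 libraries, all of WT mice (WT Ctr replicate 4, WT Tnpo3 replicates 2 and 4), so sex was not balanced between genotypes. The 6 cardiomyocyte markers (Myh6, Tnnt2, Tnni3, Myl2, Ryr2, Atp2a2) were present in every library and the atrial markers Myl7 and Sln had at most 47 and 25 counts, as in ventricular tissue.

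The 2 alternative exons of Actn4 shown here carried the change of splicing called among the 8 genes. They are mutually exclusive exons of 86 bases each, which the deposited tables place on the minus strand of chr7 at 28610915 to 28611000 (the first in transcript order) and 28609328 to 28609413 (the second) of GRCm39. The sequences are those of the matching coding exons of GENCODE M21 on GRCm38, at chr7:28911490-28911575 and chr7:28909903-28909988, minus strand, 5′ to 3′, and capitals mark the bases at which the exons differ.
Actn4 first exon of the pair: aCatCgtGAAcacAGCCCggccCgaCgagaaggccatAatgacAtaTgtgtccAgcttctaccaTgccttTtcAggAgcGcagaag
Actn4 second exon of the pair: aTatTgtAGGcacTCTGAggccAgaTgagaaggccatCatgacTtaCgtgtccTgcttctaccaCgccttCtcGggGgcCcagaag
The exons shared 65 of 86 bases (75.6%) and differed at 21. Having the same length, either one leaves the reading frame downstream as it is.

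A further pair, near the 3′ end of the coding sequence, lies in the EF-hand region, which binds calcium in nonmuscle alpha-actinin. Actn1 and Actn4 each have an exon of 81 bases, the nonmuscle form, and one of 66 bases, the smooth muscle form. They are shown because the paralogs used them in different proportions in these hearts. Capitals mark the bases at which Actn4 and Actn1 differ within a form, and GRCm38 positions on the minus strand are chr7:28895432-28895512 and chr7:28895121-28895186 for Actn4 and chr12:80170686-80170766 and chr12:80170183-80170248 for Actn1.
Actn4 nonmuscle exon: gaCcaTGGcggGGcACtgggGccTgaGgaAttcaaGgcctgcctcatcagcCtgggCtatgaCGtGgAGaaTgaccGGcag
Actn1 nonmuscle exon: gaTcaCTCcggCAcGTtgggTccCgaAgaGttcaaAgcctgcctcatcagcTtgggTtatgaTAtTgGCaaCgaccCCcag
Actn4 smooth muscle exon: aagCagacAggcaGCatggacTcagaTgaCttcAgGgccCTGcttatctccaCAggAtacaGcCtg
Actn1 smooth muscle exon: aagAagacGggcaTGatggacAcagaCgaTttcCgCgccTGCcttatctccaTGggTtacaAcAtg
Identity between the paralogs was 71.6% for the nonmuscle exon and 74.2% for the smooth muscle exon.

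All 8 genes lie on the minus strand, at these coordinates of GRCm39 as the count table gives them. Acta1 (ENSMUSG00000031972) is at chr8:124618508-124621490, Actc1 (ENSMUSG00000068614) at chr2:113877763-113884029 and Acta2 (ENSMUSG00000035783) at chr19:34218490-34232990. Actb (ENSMUSG00000029580) is at chr5:142888870-142892509 and Actg1 (ENSMUSG00000062825) at chr11:120236516-120239368. Actn1 (ENSMUSG00000015143) is at chr12:80214321-80307145, Actn2 (ENSMUSG00000052374) at chr13:12284312-12355641 and Actn4 (ENSMUSG00000054808) at chr7:28592673-28661765.

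Actc1 was the most abundant of the 8 transcripts per kilobase of exon. Averaged over the 16 libraries it stood at 5050.1 CPM per kilobase, followed by Acta1 at 772, Actn2 at 569, Actb at 287, Actg1 at 114, Acta2 at 45.2, Actn4 at 25.7 and Actn1 at 7.3. The ranges over libraries of Acta1 (90.7 to 3391) overlapped those of Actc1 (2986 to 8313), Actn2 (417 to 681), Actb (215 to 404) and Actg1 (68.7 to 138). Within each library Acta1 stood below Actc1, at a ratio of 0.0263 to 0.847. The place of Acta1 against Actn2, Actb and Actg1 was not fixed. The range of Acta2 (22.3 to 75.4) overlapped those of Actg1 and of Actn4 (22.1 to 30.3), while Actn2, Actb and Actg1 did not overlap each other and Actn1 (6.07 to 8.97) lay below all others. The sarcomeric pair thus ranked highest within its families, Actc1 among the actins and Actn2 among the actinins.

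Of the other genes of these families, Actg2 (enteric smooth muscle actin) averaged 1.08 to 1.5 CPM in the 4 groups and Actn3 (alpha-actinin of fast skeletal fibres) 0.104 to 0.286 CPM. Neither was called in any comparison. Actbl2 had 1 count in all libraries together and was not tested.

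**Figure D1:**
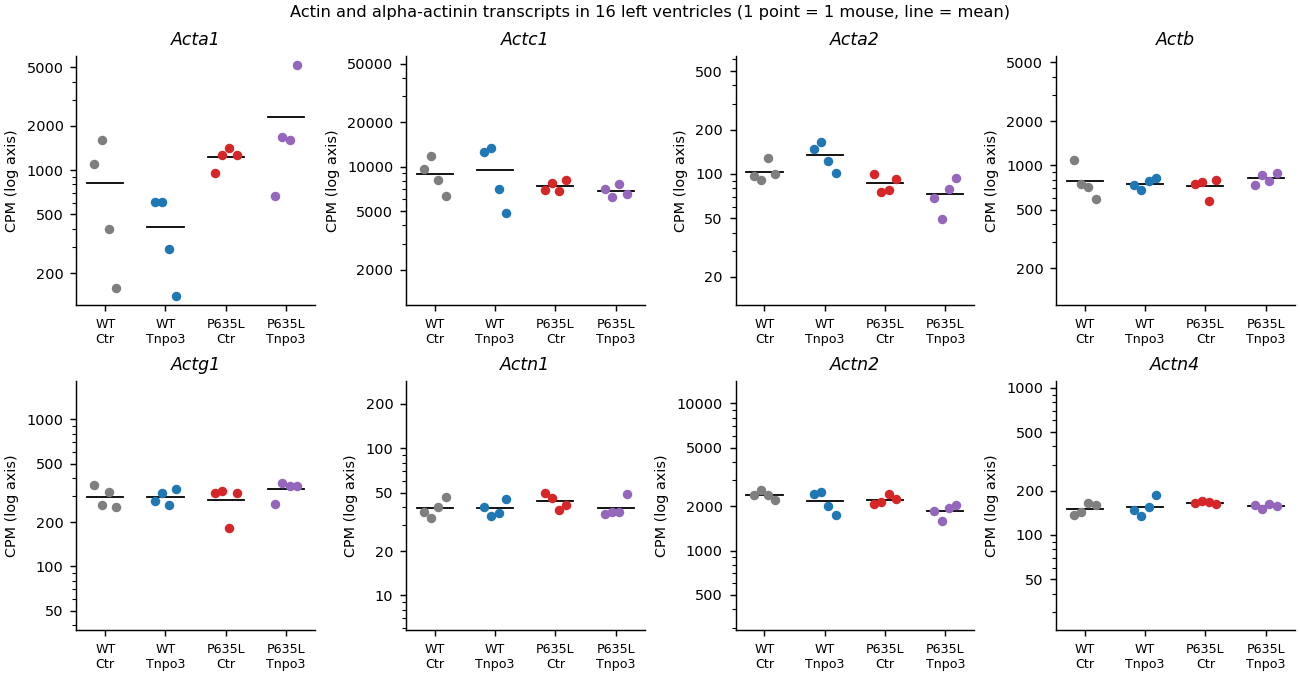
CPM (log axis, the same fold span in each panel) of the 8 genes in the 4 groups of 4 mice; each point is 1 mouse, in the order of replicates 1 to 4, and lines are group means. Acta1 spans 139 to 5209 CPM, and Actn4 lies between 135 and 186 CPM.

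None of the 8 genes passed the test in any comparison. With edgeR's quasi-likelihood test and Benjamini-Hochberg adjustment over 18662 genes, 0 of 8 were called at an adjusted p under 0.05 between P635L Ctr and WT Ctr, where 14.2% of all genes tested were called (1320 higher, 1333 lower). The count was also 0 of 8 between P635L Tnpo3 and P635L Ctr (background 3.88%), between P635L Tnpo3 and WT Ctr (3.07%), between WT Tnpo3 and WT Ctr (0.00536%) and for the interaction of virus and genotype (0.504%). With single libraries left out, the all-gene counts behind these backgrounds ran from 282 to 1022 (in place of 724), from 282 to 736 (573) and from 52 to 221 (94). An unadjusted p under 0.05 was reached by 2 genes, Acta2 and Actn2, between P635L Tnpo3 and WT Ctr, by Acta2 in the interaction, and by none in the other 3. DESeq2 on the same counts called 0 of 8 in all 5 as well. In the authors' deposited tables the only one of the 8 at an adjusted p under 0.05 was Actn2, at 0.0422, between WT Ctr and P635L Tnpo3.

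The members' median log2 fold change was -0.09 between P635L Ctr and WT Ctr and -0.05 over all genes tested. Between P635L Tnpo3 and P635L Ctr it was -0.09 and 0.01. All comparisons against WT Ctr share those 4 libraries. Nothing in the labels beyond the replicate numbers says how mice were housed or processed.

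**Figure D2:**
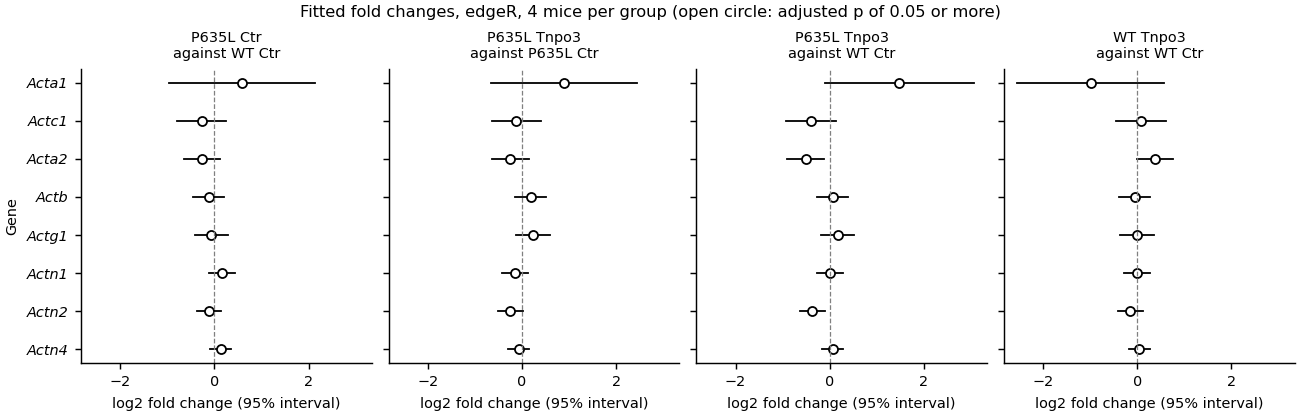
Log2 fold change fitted by edgeR (circle) with its 95% interval (line) for the 8 genes in 4 comparisons of 4 mice against 4. All circles are open, since no adjusted p was under 0.05; the intervals of Acta1 are the widest in each panel.

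Acta1, skeletal alpha-actin, varied more between mice than any other member. Its CPM in replicates 1 to 4 was 1105, 1609, 396 and 158 in WT Ctr and 604, 609, 293 and 139 in WT Tnpo3. In P635L Ctr it was 962, 1258, 1417 and 1268, and in P635L Tnpo3 670.2, 1669.6, 1595 and 5209. The 4 P635L Ctr mice thus lay close together and inside the WT Ctr range, both WT groups held mice with very little Acta1, and a single P635L Tnpo3 mouse stood far above the rest.

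The spread of Acta1 over all libraries was 37.4-fold, with a coefficient of variation of 101%. Of the 1398 genes with a mean over 100 CPM, 99.2% had a smaller one. Within groups the coefficient was 81.3% in WT Ctr, 56.9% in WT Tnpo3, 15.5% in P635L Ctr, and P635L Tnpo3 had 87.5%.

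The log2 fold change of Acta1 was 0.59 (SE 0.72, 95% interval -0.96 to 2.14, adjusted p = 0.636) between P635L Ctr and WT Ctr. It ran from 0.24 without WT Ctr replicate 4 to 1.18 without WT Ctr replicate 2. Between WT Tnpo3 and WT Ctr it was -0.99 (SE 0.72, adjusted p = 1), and without WT Ctr replicate 2 it was -0.39. Between P635L Tnpo3 and P635L Ctr it was 0.9 (SE 0.72, adjusted p = 0.566), and without P635L Tnpo3 replicate 4 it was 0.1. Between P635L Tnpo3 and WT Ctr it was 1.48 (SE 0.73, adjusted p = 0.303), and without that same mouse 0.68. The interaction was 1.89 (SE 1.02, adjusted p = 0.478). Groups overlapped in every comparison, so that a difference in Acta1 was not detectable against this spread and its intervals allow differences of several fold.

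The lowest Acta1 values of both WT groups, 158 and 139 CPM, came from the 2 libraries that were both rich in ENSMUSG00000119584 and high in Xist. The third library of high Xist, WT Tnpo3 replicate 2, held 609 CPM. The other library rich in that gene, WT Ctr replicate 2, held the highest WT value, 1609 CPM. With the 3 libraries of high Xist left out, the log2 fold change between P635L Ctr and WT Ctr was 0.28 (edgeR adjusted p = 0.818). Whether sex, or the share of ENSMUSG00000119584, had a part in the spread of Acta1 was not tested.

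Actc1, cardiac alpha-actin, was at 9584, 11812, 8126 and 6312 CPM in WT Ctr and at 12503, 13450.4, 7104 and 4831 CPM in WT Tnpo3. In the mutant hearts it was at 6995, 7689, 6839 and 8120.2 CPM with the Ctr virus and at 7081, 6224, 7591 and 6474 CPM with the Tnpo3 virus. The mutant values were tightly grouped (coefficients of variation of 8.1% and 8.99%) within the range of the WT mice (26% and 44%).

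The log2 fold change of Actc1 was -0.27 (SE 0.25, adjusted p = 0.508) between P635L Ctr and WT Ctr and -0.12 (adjusted p = 0.865) between P635L Tnpo3 and P635L Ctr. The 6 cardiomyocyte markers summed to 66320.3 to 76506 CPM in WT Ctr and 45816 to 48999 CPM in P635L Ctr, and 3 of them were called lower there: Myh6, Tnni3 and Myl2. Their part in the values of Actc1 was not tested. In whole ventricle, fewer cells of a type and less RNA per cell cannot be told apart.

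The balance of the sarcomeric actins was read within each library, as the share of Acta1 in the summed counts per kilobase of Acta1 and Actc1. It was 10.8%, 12.6%, 4.88% and 2.56% in WT Ctr and 4.84%, 4.55%, 4.16% and 2.95% in WT Tnpo3. It was 12.7%, 14.7%, 17.9% and 14.1% in P635L Ctr and 9.07%, 22%, 18.1% and 45.9% in P635L Tnpo3. All P635L Ctr mice lay above all WT Ctr mice, though by 12.7% to 12.6% at the nearest, and the P635L Tnpo3 mice overlapped both.

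The mean log2 ratio of Acta1 to Actc1 was -3.84 ± 1.14 (SD, n = 4) in WT Ctr, -4.56 ± 0.33 in WT Tnpo3, -2.53 ± 0.25 in P635L Ctr and -1.89 ± 1.27 in P635L Tnpo3. P635L Ctr exceeded WT Ctr by 1.31 (two-sided exact permutation p = 0.0286, the smallest that 4 against 4 can give; 0.229 after Benjamini-Hochberg adjustment over 8 ratio tests). P635L Tnpo3 differed from P635L Ctr by 0.64 (exact p = 0.429), from WT Ctr it differed by 1.95 (exact p = 0.0857), and WT Tnpo3 differed from WT Ctr by -0.72 (exact p = 0.286). None of these passed the adjustment, and the first could not have done so unless other ratio tests also reached that smallest p. The first of them fell from 1.31 to 0.85 without WT Ctr replicate 4 and was 1.13 (exact p = 0.0667) without the libraries rich in ENSMUSG00000119584.

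The sarcomeric actins share much coding sequence: Acta1 and Actc1 were identical at 86.3% of aligned coding bases, with a longest identical run of 29 bases, and Acta1 and Actb had a run of 77 bases. Actb and Actg1 were the closest pair, at 88.6% with a run of 62 bases. How reads matching more than one actin were counted is not given in the sources used here. Parts of a value could therefore belong to a paralog, and their size was not measured.

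**Figure D3:**
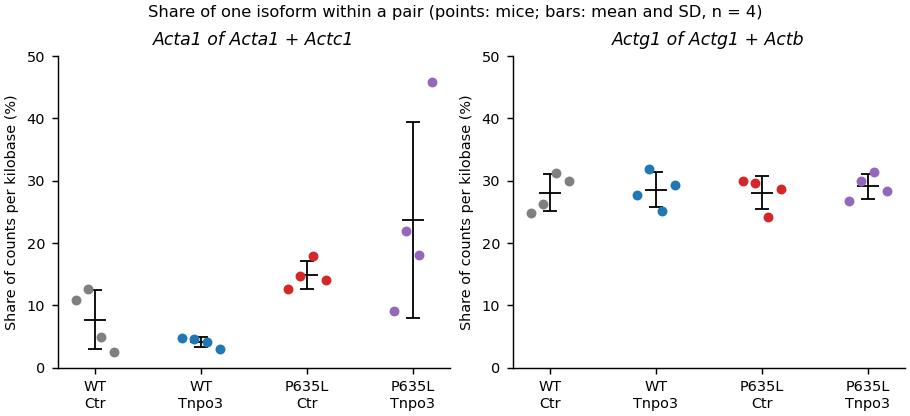
Share (%) of Acta1 in Acta1 plus Actc1 (left) and of Actg1 in Actg1 plus Actb (right), in counts per kilobase; points are mice, bars the mean and SD of 4 mice. The share of Acta1 runs from 2.56% to 45.9%, and that of Actg1 from 24.2% to 31.9%.

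Actb and Actg1 are the cytoplasmic actins of all cells. Actb was at 1081, 745, 707 and 594 CPM in WT Ctr, 736, 677, 782 and 814 in WT Tnpo3, 743, 773, 576 and 789.6 in P635L Ctr, and 735, 862, 779 and 889 in P635L Tnpo3. Actg1 was at 355, 263, 319 and 252 CPM in WT Ctr, 279, 314, 261 and 335 in WT Tnpo3, 314, 323, 183 and 315 in P635L Ctr, and 266, 367, 353 and 349.8 in P635L Tnpo3. Groups overlapped for both genes in every comparison, and the lowest value of each came from the same library, P635L Ctr replicate 3.

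Between P635L Ctr and WT Ctr the log2 fold change was -0.12 (SE 0.16, adjusted p = 0.66) for Actb and -0.07 (SE 0.17, adjusted p = 0.833) for Actg1. Between P635L Tnpo3 and P635L Ctr it was 0.18 for Actb (adjusted p = 0.596) and 0.24 for Actg1 (adjusted p = 0.502). The mean share of Actg1 in the pair was 28.1%, 28.5%, 28.1% and 29.1% in the order of the groups above. Differences in the log2 ratio were 0 to 0.08, with exact permutation p-values of 0.514 to 1.

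The library with the most Actb, WT Ctr replicate 1, also had the most of the 4 macrophage markers (Adgre1, Csf1r, C1qa, Cd68), which summed to 406 CPM against 135 to 195 CPM in the other WT Ctr mice. Its 4 lymphocyte markers summed to 27.2 CPM against 1.36 to 3.97 CPM. Without this library the log2 fold change of Actb between P635L Ctr and WT Ctr turned from -0.12 to 0.08. Macrophages express Actb strongly, and their part in this value was not tested.

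Acta2, the actin of vascular smooth muscle and of activated fibroblasts, was at 97.2, 90.4, 128 and 99.4 CPM in WT Ctr and 147, 166, 123 and 102 CPM in WT Tnpo3. It was at 100.4, 74.9, 77.3 and 92.6 CPM in P635L Ctr and 68.7, 49.1, 79.2 and 94.2 CPM in P635L Tnpo3. The highest values lay in WT Tnpo3 and the lowest in P635L Tnpo3. All WT Tnpo3 mice lay above all mice of both mutant groups, by 102 to 100.4 CPM at the nearest, and WT Ctr overlapped every other group. This is a description, since such separations were not counted over all genes.

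The log2 fold change of Acta2 between P635L Tnpo3 and WT Ctr was -0.51 (SE 0.18, adjusted p = 0.144). Between P635L Ctr and WT Ctr it was -0.27 (adjusted p = 0.368), and between WT Tnpo3 and WT Ctr 0.37 (adjusted p = 1). The interaction was -0.62 (SE 0.26, adjusted p = 0.342). None of these passed the test, and the value against WT Ctr ran from -0.66 to -0.33 over its alternatives.

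The cell types in which Acta2 is known were followed by their markers. The 6 smooth muscle markers (Myh11, Cnn1, Tagln, Smtn, Mylk, Lmod1) summed to 229.8 to 369 CPM in WT Ctr, 250.1 to 327 in WT Tnpo3, 249.6 to 307 in P635L Ctr and 224 to 273 in P635L Tnpo3, with 0 of 6 called in any comparison. Tagln averaged only 39.4 counts and shares 1241 exon bases with Gm48529 on the other strand, so its counts are uncertain. The 5 activated fibroblast markers (Postn, Meox1, Cthrc1, Comp, Fap) summed to 65.1 to 118 CPM in WT Ctr and 192 to 399 CPM in P635L Ctr, where Acta2 was at 74.9 to 100.4 CPM.

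The promoters of Acta1, Actc1 and Actg1 each held a CArG box, the binding motif of serum response factor (SRF), a run of A and T between CC and GG. The search covered 250 bases before to 50 after the start in RefSeq (GRCm38.p6) and read both strands. A promoter entry was there for 7 of the 8 genes, all but Actb, and 535 of 32851 promoters (1.63%) held the motif. No exact match was found for Acta2, Actn1, Actn2 and Actn4, and imperfect or more distant boxes were not searched for. The boxes, in capitals within 30 bases, stand at chr8:123894829-123894858 for Acta1, chr2:114052903-114052932 for Actc1 and chr11:120348566-120348595 for Actg1, minus strand. They are shown because SRF is known to drive actin genes.
Acta1 window: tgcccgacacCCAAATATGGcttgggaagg
Actc1 window: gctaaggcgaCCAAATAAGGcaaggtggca
Actg1 window: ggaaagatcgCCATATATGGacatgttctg
Across the 16 libraries the Pearson r of log2 CPM was 0.18 for Acta1 and Actc1, 0.2 for Acta1 and Actg1, and -0.04 for Actc1 and Actg1, given as a description.

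Actn2, the alpha-actinin of the Z-disc, was at 2406, 2586, 2382 and 2219 CPM in WT Ctr and 2426, 2493, 1999 and 1742 in WT Tnpo3. It was at 2077, 2139, 2411 and 2227 CPM in P635L Ctr and 1848, 1584, 1963 and 2042 CPM in P635L Tnpo3. All 4 P635L Tnpo3 mice lay below all WT Ctr mice and below all P635L Ctr mice. How many of all genes tested separate in this way was not counted, so the separation is given as a description only.

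The log2 fold change of Actn2 was -0.37 (SE 0.13, adjusted p = 0.13) between P635L Tnpo3 and WT Ctr and -0.25 (SE 0.13, adjusted p = 0.301) between P635L Tnpo3 and P635L Ctr. It was -0.12 (adjusted p = 0.588) between P635L Ctr and WT Ctr and -0.15 (adjusted p = 1) between WT Tnpo3 and WT Ctr. The interaction was -0.1 (SE 0.18, adjusted p = 0.845), so the effect of the virus was not shown to differ between genotypes. The lower level of P635L Tnpo3 against WT Ctr did not pass edgeR's threshold. It did pass in the authors' deposited table (log2 0.34 for WT Ctr over P635L Tnpo3, adjusted p = 0.0422) and narrowly did not with DESeq2 on all 16 libraries (adjusted p = 0.0629).

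Actn1 and Actn4, which link actin at adhesions and stress fibres, had the smallest spreads of the 8 over the 16 libraries, 1.48-fold and 1.37-fold. Actn1 was at 36.7, 33.6, 40 and 46.6 CPM in WT Ctr, 40, 34.8, 36.6 and 44.9 in WT Tnpo3, 49.6, 46, 38.3 and 40.9 in P635L Ctr, and 35.5, 37, 37.1 and 48.8 in P635L Tnpo3. Actn4 was at 136, 144, 164 and 161 CPM in WT Ctr, 147, 135, 155 and 186 in WT Tnpo3, 164, 169, 167 and 163 in P635L Ctr, and 160.2, 150.2, 162 and 158 in P635L Tnpo3. For Actn4 all P635L Tnpo3 mice lay below all P635L Ctr mice, 162 against 163 CPM at the nearest, a log2 fold change of -0.07 (SE 0.1, adjusted p = 0.776). Here too the share of all genes that separate was not counted.

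Between P635L Ctr and WT Ctr, Actn1 differed by 0.16 (SE 0.13, adjusted p = 0.469) and Actn4 by 0.13 (SE 0.1, adjusted p = 0.438). The coefficient of variation of Actn4 over all 16 libraries was 8.18%, and only 3.36% of genes with over 100 CPM had a smaller one. Actn4 overlaps the last exons of Capn12 on the opposite strand by 316 bases, and Capn12 had 1.575% as many counts as Actn4.

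Actn4 changed its exon use in both mutant groups. Between P635L Ctr and WT Ctr, 2 of the 35 events of the 8 genes were called by the rule used here (authors' rMATS false discovery rate, FDR, under 0.05, inclusion difference of 0.1 or more, 10 junction reads or more per library on average), where 2.52% of 34810 events with enough reads were called. Both were readings of the 86-base pair of Actn4. Between P635L Tnpo3 and WT Ctr the same 2 readings were called out of 45 events (background 2.12%), and between WT Tnpo3 and WT Ctr 0 of 32 (background 0.941%). These 2 readings share junction reads and are not independent.

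The share of junction reads that used the first 86-base exon in place of the second was 0.842, 0.944, 0.926 and 0.937 in the 4 WT Ctr libraries and 0.994, 0.876, 0.949 and 0.958 in WT Tnpo3, by their listed position in the tables, which is not tied to replicate numbers. It was 0.754, 0.786, 0.715 and 0.82 in P635L Ctr and 0.672, 0.888, 0.882 and 0.748 in P635L Tnpo3. All P635L Ctr libraries lay below all libraries of both WT groups, and P635L Tnpo3 overlapped every group. The tables also read the second exon by itself, as an exon included or skipped, and that reading was not called. Its authors' difference, WT Ctr minus the other group, was -0.039 for P635L Ctr (FDR 0.0984) and -0.033 for P635L Tnpo3 (FDR 0.943). A further reading of it, in the P635L Tnpo3 table, had a difference of 0.067 (FDR 1).

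The mean inclusion was 0.912 ± 0.0474 (SD, n = 4) in WT Ctr, from 580 reads for the first exon and 50 for the second, and 0.769 ± 0.0448 in P635L Ctr, from 895 and 256 reads. The difference of -0.143 had an authors' FDR of 6.19e-10. In P635L Tnpo3 the mean was 0.797 ± 0.106, from 478 and 114 reads, -0.115 from WT Ctr with an authors' FDR of 0.00102 and with overlap of the groups. Leaving out each library in turn gave -0.167 to -0.126 for P635L Ctr and -0.145 to -0.0729 for P635L Tnpo3, the last without the library at listed position 1, which leaves the difference under 0.1.

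The mutant groups differed from each other by 0.0287 (exact permutation p = 0.629), with a range of -0.00142 to 0.0706 when each library was left out. In WT hearts the Tnpo3 virus gave 0.944, 0.032 above WT Ctr (authors' FDR 0.691). A return of this exon choice towards WT with the Tnpo3 virus was therefore not detectable, at 116 to 178 junction reads per P635L Tnpo3 library.

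Read as skipping of the first exon, the same choice gave inclusion levels of 0.728, 0.851, 0.962 and 0.911 in WT Ctr and 0.515, 0.61, 0.483 and 0.686 in P635L Ctr, -0.289 with an authors' FDR of 2.87e-06 and no overlap. In P635L Tnpo3 they were 0.444, 0.683, 0.78 and 0.435, -0.277 from WT Ctr (authors' FDR 0.00179). Junction reads for and against inclusion were 258 and 22 in WT Ctr, 443 and 176 in P635L Ctr, and 196 and 77 in P635L Tnpo3. The levels are not plain shares of these reads, and -0.289 and -0.277 are larger than the shifts in the share of reads. The mean levels of P635L Tnpo3 and P635L Ctr differed by 0.012 (exact permutation p = 0.914). A further reading of the first exon by skipping was listed only for P635L Tnpo3 and WT Ctr, and it was not called. Its levels were 1.0 in every WT Ctr library and 0.956, 0.973, 1.0 and 1.0 in P635L Tnpo3, a difference of 0.018 (WT Ctr minus P635L Tnpo3). Skipping of the first exon was thus rare in that reading.

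Fibroblast markers moved in the same comparison. Of 6 (Col1a1, Col1a2, Col3a1, Pdgfra, Dcn, Tcf21), 5 rose in P635L Ctr against WT Ctr, from a sum of 884 to 1511 CPM to one of 1392 to 2123 CPM, and 4 fell in P635L Tnpo3 against P635L Ctr, to 1010.3 to 1452 CPM. Actn4 is made in fibroblasts as well as in myocytes, and their part in its exon use was not tested.

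**Figure D4:**
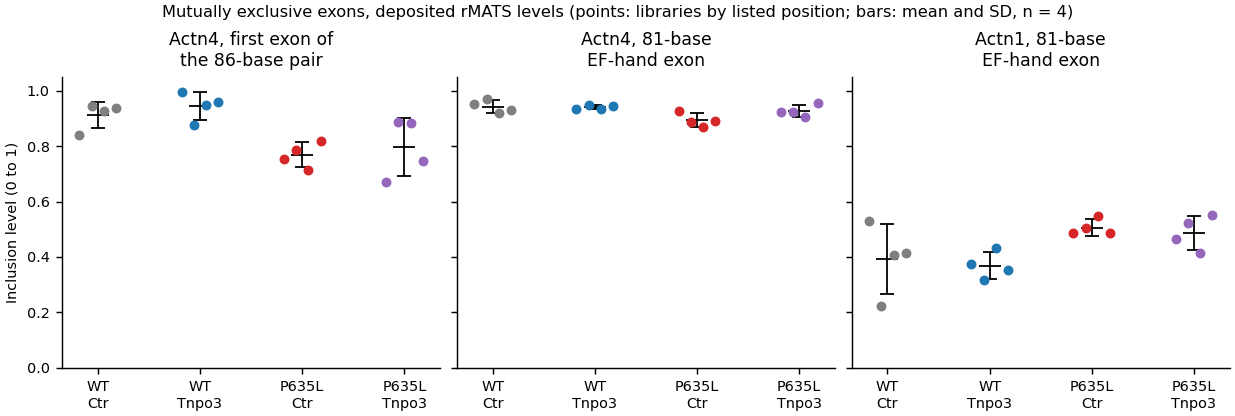
Inclusion level (0 to 1, deposited by the authors) of the first of each pair of mutually exclusive exons, with points for the 4 libraries of a group by listed position and bars for the mean and SD. The first 86-base exon of Actn4 drops from 0.912 in WT Ctr to 0.769 in P635L Ctr, while the EF-hand exons lie near 0.9 in Actn4 and near 0.4 to 0.5 in Actn1.

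The EF-hand exons set the paralogs apart. In Actn4 the nonmuscle exon of 81 bases was chosen at 0.952, 0.97, 0.918 and 0.929 in WT Ctr and at 0.928, 0.887, 0.869 and 0.889 in P635L Ctr, with slight overlap. In Actn1 it was chosen at 0.528, 0.224, 0.406 and 0.416 in WT Ctr and at 0.485, 0.505, 0.548 and 0.487 in P635L Ctr. The smooth muscle exon was thus the minor form in Actn4 and took the larger share in Actn1 of most WT Ctr libraries.

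For Actn4 the means were 0.942 in WT Ctr, 0.941 in WT Tnpo3, 0.893 in P635L Ctr and 0.927 in P635L Tnpo3. A difference of -0.049 between P635L Ctr and WT Ctr had an authors' FDR of 2.55e-05 but was under the 0.1 that the rule asks for. P635L Tnpo3 was 0.0338 above P635L Ctr (exact permutation p = 0.114). For Actn1 the means in the same order were 0.394, 0.369, 0.506 and 0.487. The differences from WT Ctr, 0.113 for P635L Ctr and 0.0935 for P635L Tnpo3, did not pass in the authors' table (FDR 0.239 and 0.365). WT Ctr had only 109 to 181 junction reads per library there and a wide spread, so a difference is not excluded.

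Most other exons of the 8 genes were included in nearly all reads. In 20 of 35, 26 of 45 and 17 of 32 events of the 3 tables every library had an inclusion level of at least 0.95. The event with the most junction reads was on average within 0.002 of full inclusion in every group with a value for Acta1 (an exon of 192 bases), Actc1 (182 bases), Acta2 (129 bases), Actg1 (129 bases) and Actn2 (66 bases).

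An authors' FDR under 0.05 without a difference of 0.1 was found for a few more events, named after their values were seen. An exon of 63 bases in Actb was included at 0.0902 in P635L Ctr and 0.0635 in WT Ctr (FDR 0.000242), and at 0.0592 in P635L Tnpo3. An exon of 60 bases in Actn4 that ends, in transcript order, at the same base as its smooth muscle exon was at 0.0457 and 0.026 (FDR 0.00827). Between WT Tnpo3 and WT Ctr, an Actb event listed as a retained intron was at 0.984 and 0.993 (FDR 0.0254). The form counted as retained, an exon of 240 bases, took nearly all reads, and the form with a part spliced out was rare. In the same comparison the smooth muscle exon of Actn4, read by skipping, was at 0.89 and 0.984 (FDR 0.00574) from 12 to 61 reads per library.

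The genes that act on actin and alpha-actinin were followed as 8 lists. Lists and members were drawn up together, with earlier results of these data known. The counts are set beside those of all genes (14.2% called between P635L Ctr and WT Ctr, median -0.05) as a description, not as a test of a list.

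Among partners of alpha-actinin in the Z-disc, 5 of 19 tested genes rose and 2 fell between P635L Ctr and WT Ctr, with a median log2 fold change of 0.36. Synpo2l, an actin-bundling Z-disc protein, rose by 1.66 (SE 0.14, adjusted p = 2.87e-07), from 139 ± 16 to 440.2 ± 73.3 CPM (SD, n = 4). Pdlim3, also called ALP, which binds the rod of alpha-actinin, rose by 1.6 (SE 0.12, adjusted p = 1.44e-07), from 15.5 ± 1.3 to 47.1 ± 8.19 CPM. Xirp2, an actin-binding protein of the intercalated disc, rose by 0.82 (adjusted p = 0.00839). Myoz1, the calsarcin of fast skeletal muscle, rose by 1.1 (adjusted p = 0.0481), from 0.669 to 1.44 CPM, with overlap of the groups.

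The fifth that rose was Nrap, at 0.48 (adjusted p = 0.0143). The pair that fell, named after their values were seen, were Tcap (telethonin) at -0.64 (adjusted p = 0.0323) and Myoz2, the cardiac calsarcin, at -0.52 (adjusted p = 0.0211). Actn2 itself stood at -0.12 in the same comparison.

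With the Tnpo3 virus in mutant hearts, 0 of these 19 genes rose and 5 fell, with a median of -0.5 against 0.01 over all genes (background 3.88%). Synpo2l fell by 1.62 on the log2 scale (SE 0.14, adjusted p = 2.82e-06) to 143 ± 21.5 CPM, and Pdlim3 fell by 0.98 (adjusted p = 0.000149) to 23.9 ± 0.403 CPM. Nrap, a scaffold of myofibril assembly, fell by 0.78 (adjusted p = 0.00151) and Xirp1 fell by 0.72 (adjusted p = 0.0262). The fifth, Flnc (filamin C), fell by 0.57 (adjusted p = 0.0497) and is named after its value was seen. Actn2 was -0.25 in this comparison and did not pass the test.

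Against WT Ctr, Synpo2l of P635L Tnpo3 hearts was at 0.04 (adjusted p = 0.901) and Pdlim3 remained higher by 0.62 (adjusted p = 0.00661), the only gene of the list called there. The interaction of virus and genotype was called for Synpo2l (-1.35, adjusted p = 0.00274) and Pdlim3 (-0.77, adjusted p = 0.048).

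Of 10 genes that cap the thin filament or set its length, only Tmod4, a tropomodulin of skeletal muscle, was called. It fell by 1.39 (SE 0.15, adjusted p = 3.58e-06) between P635L Ctr and WT Ctr, from 39.3 ± 5.66 to 15 ± 1.66 CPM, and the list's median was -0.01. With the Tnpo3 virus it rose by 0.95 (SE 0.15, adjusted p = 0.00105) to 29 ± 2.42 CPM, and its interaction was 1.16 (adjusted p = 0.0115). The groups did not overlap in either comparison.

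Of 13 genes of monomer turnover, 2 rose between P635L Ctr and WT Ctr (median 0.12). Gsn (gelsolin), which severs and caps filaments, rose by 0.68 (adjusted p = 0.00151), from 1744 ± 128 to 2791 ± 386 CPM. Twf1 (twinfilin 1), which binds monomers, rose by 0.36 (adjusted p = 0.0229), and its exons overlap Irak4 on the other strand, so its counts are uncertain. With the Tnpo3 virus Gsn fell by 0.49 (adjusted p = 0.0403) and Cap2, a cyclase-associated protein, fell by 0.75 (adjusted p = 0.0318). Gsn is also made by fibroblasts, whose marker sums moved the same way, and their part was not tested.

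Of 8 known targets of SRF, 2 rose between P635L Ctr and WT Ctr (median 0.48): Ccn2 (connective tissue growth factor) by 2.76 (SE 0.43, adjusted p = 0.000538), from 39.4 ± 23.4 to 267 ± 81.1 CPM, and Ccn1 by 1.11 (adjusted p = 0.00181). Both are also targets of the YAP coactivators. Tagln and Vcl, also on this list, overlap genes of the other strand that had more counts, so their own counts are uncertain. With the Tnpo3 virus 0 of 8 were called, and Ccn2 was at -1.53 (adjusted p = 0.0528) and Ccn1 at -0.6 (adjusted p = 0.129). The activated fibroblast sum was 192 to 399 CPM in P635L Ctr and 90.6 to 399 CPM in P635L Tnpo3, and its part in these values was not tested.

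The other 4 lists held no called gene in either comparison: 9 subunits of the Arp2/3 complex, which nucleates branched actin (medians -0.01 and -0.04), 11 adhesion partners of alpha-actinin (-0.11 and -0.19), 10 genes of actin folding and maturation (-0.07 and -0.09), and SRF with its coactivators (4 genes, -0.16 and 0.03). At an unadjusted p under 0.05 there were 1, 1, 2 and 0 genes in the first comparison and 0, 2, 2 and 0 in the second. Several genes of these lists share exon bases with genes of the other strand, so their counts are uncertain. The longest such overlaps were 2106 bases for Ilk (with Taf10), 2090 for Vcl (Ap3m1) and 931 for Arpc1b (Pdap1). Taf10 and Ap3m1 had more counts than Ilk and Vcl. Over shorter overlaps of 62 and 10 bases, Rpl35 and Sgsm3 had more counts than Arpc5l and Mrtfa. On its own strand Naa80 shares 1920 exon bases with Hyal1, which had 55.191% as many counts, so Naa80 is uncertain as well. Between WT Tnpo3 and WT Ctr no gene of the 8 lists was called, and 1 gene of all tested was.

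**Figure D5:**
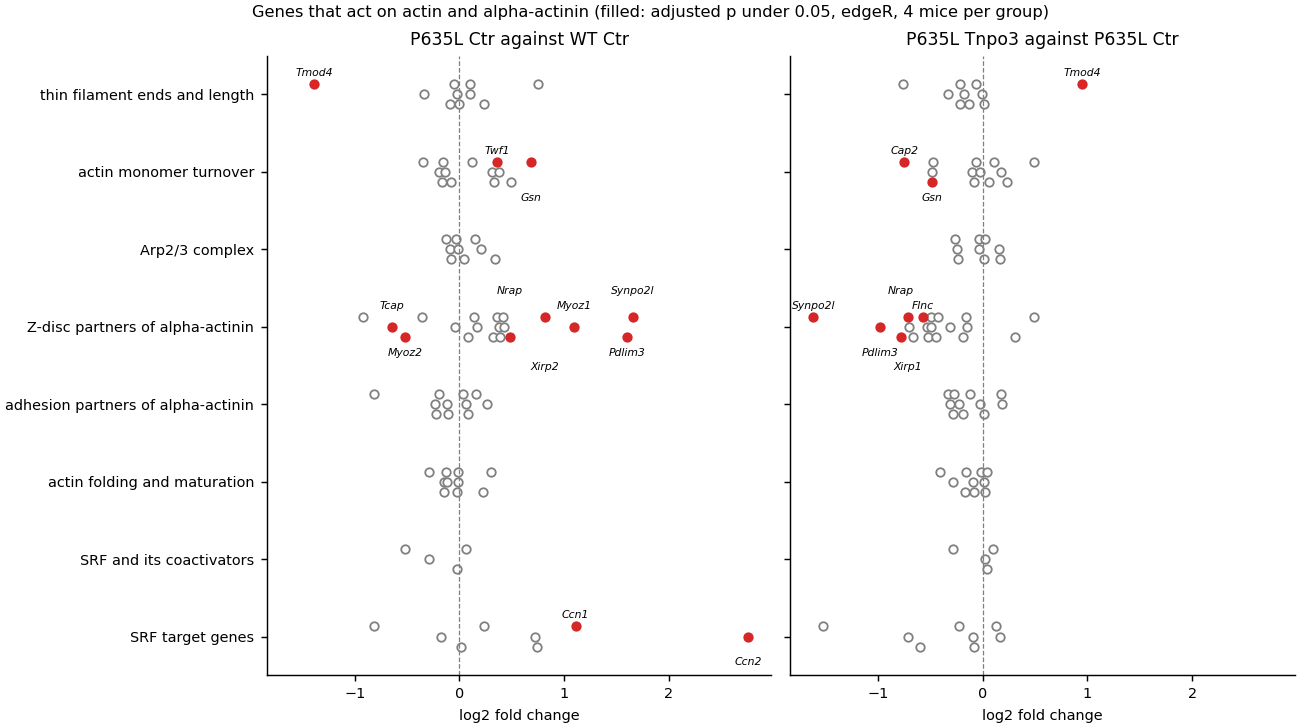
Log2 fold changes of single genes (points) in 8 lists of genes that act on actin and alpha-actinin, 4 mice against 4; filled red points had an adjusted p under 0.05 in edgeR and are named. Synpo2l and Pdlim3 stand at 1.66 and 1.6 on the left and at -1.62 and -0.98 on the right, and Tmod4 moves the other way.

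The skeletal muscle markers followed here were present at trace level. Of 7 markers, 4 were tested and 2 rose in P635L Ctr against WT Ctr, the fast troponins Tnnt3 (3.3, adjusted p = 4.67e-07) and Tnni2 (2.97, adjusted p = 1.42e-06). The sum was 4.75 to 6.44 CPM in WT Ctr, 3.46 to 5.78 in WT Tnpo3, 24.9 to 36.9 in P635L Ctr and 14.5 to 24.5 in P635L Tnpo3. The fast myosins Myh1, Myh2 and Myh4, which define fast skeletal fibres, had at most 14, 9 and 2 counts in any library, and Actn3 was not called. The mouse with the most Acta1, at 5209 CPM, had a sum of 21.8 CPM, inside its group's range. Whether skeletal muscle had a part in the values of Acta1 was not tested. With the Tnpo3 virus in mutant hearts Tnnt3 fell by 1.65 (adjusted p = 0.0013), the 1 of the 4 tested that was called. Tnni2 was at -0.4 (adjusted p = 0.426), Mylpf at -0.14 (adjusted p = 0.823) and Pvalb, with 0.477 CPM in P635L Ctr and 1.43 CPM in P635L Tnpo3, at 1.57 (adjusted p = 0.224).

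Across the 16 libraries Actc1 ran with Actn2 (Pearson r of log2 CPM 0.75, 0.81 with group means removed) and against Actn4 (-0.78 and -0.81). Actb ran with Actg1 (0.75 and 0.72). Acta1 and Actc1 had an r of 0.18, and 0.67 with group means removed. These describe libraries that share depth and scaling, and carry no test.

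The 3 genes most like each member, by the highest Pearson r over the 16 libraries, were Gpx4 (0.95), Zpr1 (0.94) and Use1 (0.92) for Acta1. They were Mtx2, Chac2 and Pex2 (each 0.97) for Actc1, Dcun1d4 (0.85), Rap1gds1 (0.83) and Jak1 (0.82) for Acta2, and Cd300c2 (0.95), Lst1 (0.92) and Vim (0.91) for Actb. For Actg1 they were Pygo2 (0.79), Clp1 and Emp3 (each 0.78), and for Actn1 Armcx2 (0.81), Tbc1d8b (0.8) and Pxdc1 (0.79). For Actn2 they were Tcp1 (0.94), a subunit of the chaperonin that folds actin whose exons overlap Mrpl18 on the other strand, Asb2 (0.92) and Tarsl2 (0.9), and for Actn4 Hycc2 (0.91), Mier1 and Bicral (each 0.88).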

How the data were processed

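Gene counts were made by the authors with STAR 2.7.9a and featureCounts 2.0.6 on GRCm39, per the submitters' processing notes; the annotation release and the use of strand are not given in the sources used here. The authors' deposited DESeq2 tables give a mean of scaled counts (signal), log2 fold changes, a Wald score and p-values against WT Ctr. The deposited rMATS tables give junction counts, inclusion levels, p-values and a difference score for the same 3 comparisons. Per the labels, libraries were poly(A)-selected and stranded.

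From the counts, 18662 genes (filterByExpr) were fitted in R 4.3.3 with edgeR 4.0.16 (TMM, robust quasi-likelihood, 1 mean per group, 12 residual degrees of freedom), after the test had been tried on simulated counts. Tests were two-sided with Benjamini-Hochberg adjustment over all genes at 0.05. CPM carry TMM factors. Ratios and the difference between mutant groups in exon use were compared with exact permutation tests over 70 assignments. Named are all 8 genes, up to 4 called genes per list with the largest change in either mutant comparison, called events, and the event with most reads per gene. Members and lists were chosen with earlier results of these data known. Separate animals are labelled as replicates. Their numbers were not treated as pairs. Alternatives were DESeq2 1.42.0, other scalings and filters, each library left out, and libraries rich in ENSMUSG00000119584 or Xist left out.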

Additional observations from a re-analysis of the deposited data

Results flagged for a closer look

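In 3 of 68 groups of 4 values, 1 value stood apart from the other 3 by a larger part of the group's range than Dixon's 95% critical value allows. Chance gives about 5% of groups. Actg1 in P635L Ctr replicate 3 was at 183 CPM against 314 CPM for the nearest mouse (0.936 of the range). Actg1 in P635L Tnpo3 replicate 1 was at 266 CPM against 349.8 CPM (0.830 of the range). Actn1 in P635L Tnpo3 replicate 4 was at 48.8 CPM against 37.1 CPM (0.880 of the range), and this is the mouse with the highest Acta1.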

How the results depend on the processing

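The count of members called, 0 in each of 5 comparisons, was the same under all alternatives, and 38 of 1032 fold changes of single members (3.68%) changed sign, none of them called. With the replicate block 0 members were called, the all-gene counts were 2487, 1, 677, 490 and 113, and the difference in the log2 ratio of Acta1 to Actc1 between P635L Ctr and WT Ctr was 1.31 with an exact sign-flip p of 0.125, the smallest that 4 pairs allow. Same-number libraries deviated from their group means with an r of -0.26 to 0.55 over 24 pairs (median -0.06, 6 over 0.1). For WT Ctr and WT Tnpo3 the 4 values were 0.0964, 0.1083, 0.2756 and 0.552, so 1 of them missed 0.1 narrowly. Acta1 was lower in WT Tnpo3 than in WT Ctr at all 4 numbers, with a log2 fold change of -0.91 (edgeR adjusted p = 1) under the block and -0.99 without it. The difference in the ratio between P635L Ctr and WT Ctr ran from 0.85 to 1.66 with each library left out, with an exact p of 0.0286 when a WT Ctr library was left out and 0.114 to 0.171 when a P635L Ctr library was, and it was 1.13 (exact p 0.0667, the smallest possible) without the libraries rich in ENSMUSG00000119584. The same ratio between WT Tnpo3 and WT Ctr ran from -1.19 (exact p 0.0286, without WT Ctr replicate 4) to -0.37, and between P635L Tnpo3 and P635L Ctr from 0.09 to 1.12 (exact p 0.0286, without P635L Tnpo3 replicate 1). A required inclusion difference of 0.2 left 1 called event, in each mutant table, and one of 0.05 gave 1 between WT Tnpo3 and WT Ctr; the threshold itself sets these counts. Counts over all genes moved both ways. For P635L Tnpo3 and P635L Ctr, 724 became 395, 321 and 288 without P635L Ctr replicates 1, 2 and 4, and 384, 347 and 282 without P635L Tnpo3 replicates 1, 2 and 3. It became 1482 without the libraries rich in ENSMUSG00000119584, 1282 without those of high Xist, 1363 with DESeq2 and 2846 with only the compared libraries fitted. For P635L Tnpo3 and WT Ctr, 573 became 352 when WT Ctr replicate 2 was dropped, 360 and 282 without P635L Tnpo3 replicates 2 and 4, 319 without the libraries rich in ENSMUSG00000119584, 390 without the other groups in the fit and 1113 with DESeq2. The interaction count of 94 became 57 when WT Ctr replicate 3 was dropped, 61 and 53 without P635L Ctr replicates 2 and 4, and 61, 59 and 52 without P635L Tnpo3 replicates 1, 2 and 3. It became 54 without the libraries of high Xist, 221 without WT Tnpo3 replicate 4, 146 with no filter, 322 without the libraries rich in ENSMUSG00000119584 and 412 with DESeq2. A required log2 fold change of 1 left 1128, 253, 307 and 70 calls in place of 2653, 724, 573 and 94. The causes were not tested. Splicing could not be run without those libraries, since listed positions are not tied to libraries.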
